A study of Rattus norvegicus with 8 samples.

Results

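Growth hormone controls a set of liver genes in the rat, and 10 of them were followed here in adult male liver: Ghr, Stat5b, Igf1, Igfals, Socs2, Bcl6, Cyp2c11, Cyp2c13, Obp3 and A1bg. They were chosen by name, with earlier results of these data known. The choice took genes of the growth hormone axis or genes that respond to the pulsed male pattern of the hormone. Each gene was read from the probe with the brightest liver signal among those whose RefSeq accession belongs to the gene. They are 10 of 10004 named genes that passed the filter on dim signal, and all 10 passed it, with liver signal well above background on all 8 arrays and no saturated spot. The AhR group was male Sprague-Dawley offspring of dams given a mixture of aryl hydrocarbon receptor agonists in corn oil (non-ortho polychlorinated biphenyls, dibenzodioxins and dibenzofurans, 1.8 ng dioxin toxic equivalents per kg per day) between gestation day 0 and postnatal day 20. The Control group was male Sprague-Dawley offspring of dams given the corn oil without the mixture. Both groups stayed with their birth mothers and were 78 to 86 days old when liver was taken. Each group had 4 arrays, each array held RNA of 2 rats pooled at random, and the labels do not say which pools shared a litter, so that p-values measure the spread between pools. Every array carried liver RNA in Cy5 and a universal rat reference RNA in Cy3, and values below are log2 Cy5/Cy3.

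Growth hormone binds its receptor on hepatocytes, which activates the kinase JAK2 and the transcription factors STAT5A and STAT5B. Adult male rats release the hormone in pulses separated by troughs and females release it more steadily, and this pattern sets many sex differences of the rat liver, such as the male cytochromes CYP2C11 and CYP2C13. STAT5 also switches on Igf1 and Igfals, whose products form the circulating growth factor complex, and Socs2, a feedback inhibitor of the receptor. BCL6 is a repressor that can bind the same kind of DNA site as STAT5, and A1bg encodes a plasma protein known as female-predominant in rat liver.

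The promoters of A1bg, Bcl6 and Igfals are shown because A1bg and Bcl6 had the widest spread between arrays of the members and Igfals ran against Bcl6. The stretches are RefSeq sequence of assembly GRCr8, from 250 bases before to 50 bases after the gene start, written 5′ to 3′ on the gene's strand. Capitals mark TTCNNNGAA, the core of a STAT5-type site, and ATCAAT, the core of a site for HNF6 (the product of Onecut1), searched on both strands with no overlap between the matches shown. A1bg lies at chr7:94387447-94387746 on the minus strand, Bcl6 at chr11:90358503-90358802 on the plus strand and Igfals at chr10:14403600-14403899 on the plus strand.
A1bg: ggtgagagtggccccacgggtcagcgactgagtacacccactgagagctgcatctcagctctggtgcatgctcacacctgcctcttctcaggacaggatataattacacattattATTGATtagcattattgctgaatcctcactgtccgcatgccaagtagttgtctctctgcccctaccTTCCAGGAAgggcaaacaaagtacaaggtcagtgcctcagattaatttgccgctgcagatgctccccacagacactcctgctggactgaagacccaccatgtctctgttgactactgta
Bcl6: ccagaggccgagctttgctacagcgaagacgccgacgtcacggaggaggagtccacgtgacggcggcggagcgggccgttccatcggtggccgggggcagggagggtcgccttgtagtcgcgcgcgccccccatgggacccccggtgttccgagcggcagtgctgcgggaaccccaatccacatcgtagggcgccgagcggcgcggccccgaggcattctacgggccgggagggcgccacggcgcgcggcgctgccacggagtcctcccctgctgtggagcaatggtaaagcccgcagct
Igfals: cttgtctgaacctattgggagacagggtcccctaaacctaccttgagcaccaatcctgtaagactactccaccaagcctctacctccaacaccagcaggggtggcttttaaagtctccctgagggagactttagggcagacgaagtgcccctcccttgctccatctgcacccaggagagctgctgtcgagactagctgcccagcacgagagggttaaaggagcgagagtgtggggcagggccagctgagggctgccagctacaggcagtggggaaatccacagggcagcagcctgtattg

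The A1bg stretch held TTCNNNGAA at 69 bases and ATCAAT at 135 bases before the start. The first was on the gene's strand as TTCCAGGAA. The second was on the opposite strand, so that the gene's strand as printed reads ATTGAT there. A1bg was the only member with the STAT5-type core, 1 of the 9 members with a promoter entry. The share was 8.87% over 33469 rat promoters of the same length. ATCAAT was in 4 of the 9, at 41 bases before the start in Ghr, 60 in Cyp2c13, 183 in Obp3 and 135 in A1bg, against 8.06% of all promoters. Socs2 had no entry. These are matches of letters and no measurement of binding.

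Liver identity held in all 8 libraries: all 12 hepatocyte markers were well above background on every array, and none of the 5 exocrine pancreas markers passed the filter. The share of probes with liver signal well above background was 56.2% to 62.0% per array. Kupffer cell markers (9 of 9 passed) summed to between 64200 and 98800 units of Cy5 signal in AhR and between 43900 and 82500 units in Control, where the lowest sum was that of Control 1. In bulk liver RNA, fewer cells of a type and less RNA per cell cannot be told apart. The members' reference signal was also bright in several cases, with a mean Cy3 of 56300 units for Cyp2c11 and 134000 units for Obp3, while Stat5b at 115 units and A1bg at 114 units were dim in Cy3.

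**Figure D1:**
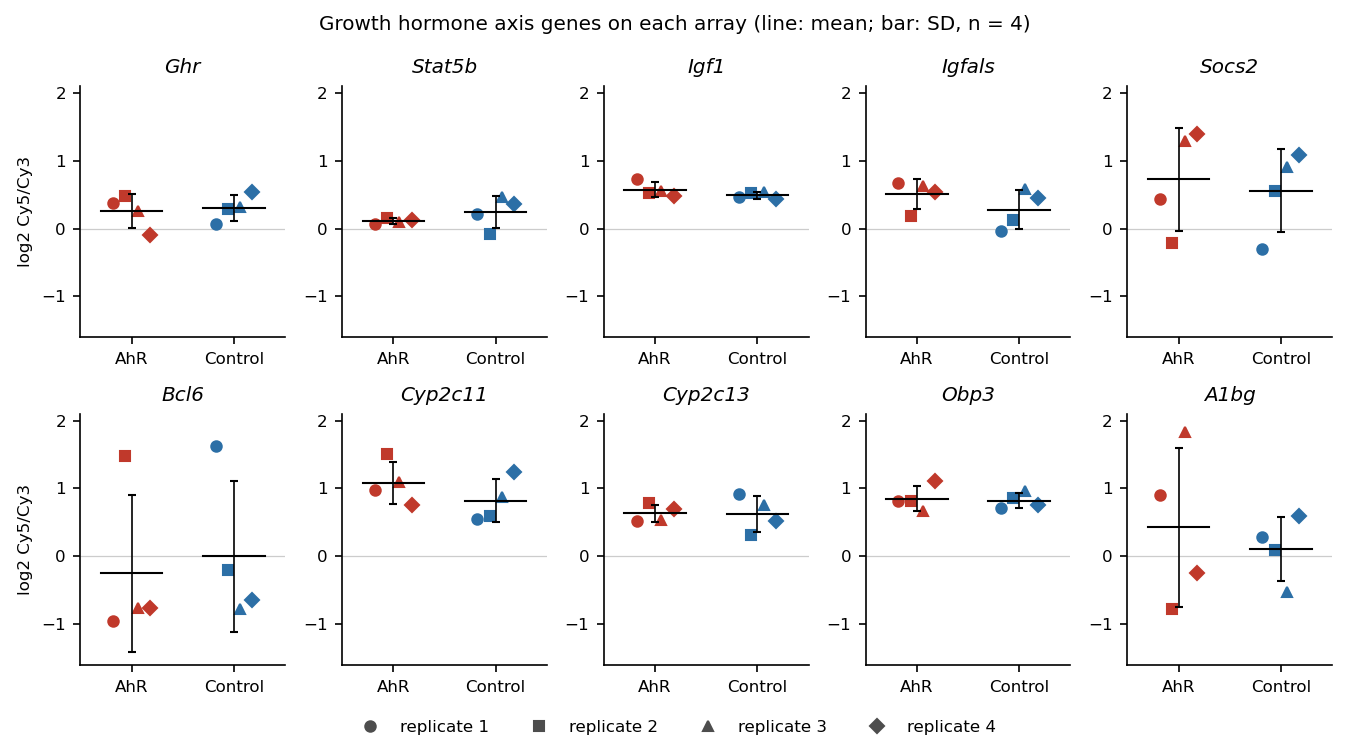
Log2 Cy5/Cy3 of each member on each of the 4 AhR and 4 Control arrays; symbols mark the replicate number, lines the group mean and bars the SD (n = 4). Bcl6 is high on AhR 2 and Control 1, Socs2 is low on the same pair, A1bg reaches 1.83 on AhR 3, and Igf1 and Obp3 vary little.

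At the head of the axis, neither the receptor nor its transcription factor was called between the groups. Ghr, which encodes the growth hormone receptor, had 0.37, 0.48, 0.26 and -0.09 on AhR arrays 1 to 4, against 0.06, 0.29, 0.32 and 0.54 on Control arrays 1 to 4. The groups overlapped, and AhR 4 was lowest. The difference was -0.05 (limma SE 0.14, 95% interval -0.36 to 0.27). The probes of Ghr disagreed across arrays: the second brightest had -0.39, -0.38, -0.18 and 0.28 in AhR, against 0.01, 0.52, 0.10 and -0.41 in Control. It was high on AhR 4, where the brightest was lowest, and low on Control 4, where the brightest was highest, so the level of Ghr on a single array depends on the probe. The 2 dimmer probes gave differences of -0.22 and -0.40, neither called. The SD within groups of the brightest probe, 0.22, was at the 73.6th percentile of all genes, and those of the dimmer probes at the 93.4th and 93.6th. Stat5b, the main mediator of pulsed hormone in male liver, had 0.06, 0.16, 0.09 and 0.12 in AhR, against 0.21, -0.08, 0.46 and 0.36 in Control. The AhR arrays lay inside the Control range, and the difference was -0.13 (limma SE 0.12, interval -0.39 to 0.13). Its SD of 0.17 was at the 49.8th percentile.

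By their brightest probes, the secreted products of the axis differed in spread between arrays. Igf1, the hormone's main endocrine product, had 0.73, 0.52, 0.56 and 0.48 in AhR, against 0.46, 0.53, 0.54 and 0.44 in Control. Its SD within groups, 0.08, was at the 7th percentile of all genes, whose median was 0.17, and its arrays spanned 1.22-fold. The second Igf1 probe spanned 1.40-fold, and its SD of 0.15 was at the 41.8th percentile. Its r with the brightest probe was 0.59, so the low spread of Igf1 depends on the probe. Igfals, the acid-labile subunit that stabilises circulating IGF1, had 0.67, 0.18, 0.62 and 0.54 in AhR, against -0.04, 0.13, 0.58 and 0.45 in Control. AhR 2, Control 1 and Control 2 were low and the other 5 arrays lay between 0.45 and 0.67, in both groups. The difference was 0.22 (limma SE 0.16, interval -0.13 to 0.57).

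Socs2, the feedback inhibitor, moved far more. It had 0.44, -0.21, 1.29 and 1.39 in AhR, against -0.30, 0.55, 0.90 and 1.09 in Control. The lowest arrays were AhR 2 and Control 1, the range was 3.22-fold, and the SD within groups of 0.69 was at the 99.4th percentile of all genes. The array carries Socs2 on 10 spots, which had an SD of 0.08 within an array, far under the spread between arrays. The difference between groups was 0.17 (limma SE 0.37, interval -0.66 to 1.00). Cish, another feedback inhibitor of the receptor, had -0.18, 0.15, 0.31 and 0.47 in AhR, against 0.01, 0.07, 0.03 and 0.44 in Control, and its lowest array was AhR 1; it was chosen after its values were seen.

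The male-specific genes were high in liver relative to the reference on every array. Cyp2c11, the chief steroid hydroxylase of adult male rat liver, had 0.98, 1.5, 1.09 and 0.75 in AhR, against 0.55, 0.60, 0.88 and 1.24 in Control. AhR 2 was highest and Control 1 lowest, although these arrays shared high Bcl6. The difference was 0.26 (limma SE 0.18, interval -0.14 to 0.67). Cyp2c13, a second male-specific cytochrome, had 0.52, 0.78, 0.53 and 0.70 in AhR, against 0.92, 0.31, 0.76 and 0.52 in Control. Between groups it differed by 0.00 (limma SE 0.14). Cyp2c13 separated by slide row. The row 1 arrays (AhR 2, AhR 4, Control 1 and Control 3) lay between 0.70 and 0.92, and the row 2 arrays between 0.31 and 0.53. The share of all genes that separate by row is not given here, and the cause was not tested. Obp3, a secreted lipid-binding protein of the urinary globulin family, had 0.81, 0.81, 0.67 and 1.11 in AhR, against 0.71, 0.86, 0.96 and 0.75 in Control. Its difference was 0.03 (limma SE 0.11, interval -0.21 to 0.28). None of the 3 separated the groups.

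Bcl6 had 2 levels. It had -0.96, 1.48, -0.76 and -0.76 in AhR, against 1.62, -0.20, -0.78 and -0.64 in Control. AhR 2 and Control 1 stood apart from the other 6 arrays by a gap of 1.68, which is 65.3% of the whole range, and 1 of them lay in each group. The SD within groups of 1.13 was at the 99.9th percentile of all genes, and the arrays spanned 5.98-fold. The raw Cy5 signal ran from 1520 to 13200 units, and the SD between the probe's 2 spots was 0.07. The group difference was -0.25 (limma SE 0.61, interval -1.59 to 1.10), and without Control 1 it was 0.29. Both high arrays lay in row 1 of the slide, as did AhR 4 and Control 3, which were low.

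A1bg spanned a similar range without falling into levels. It had 0.91, -0.78, 1.83 and -0.24 in AhR, against 0.29, 0.09, -0.52 and 0.59 in Control. AhR held both the highest and the lowest array, and the SD was 1.17 in AhR and 0.47 in Control (n = 4 each). The SD within groups of 0.89 was at the 99.7th percentile, and the arrays spanned 6.13-fold. The raw Cy5 signal was low, 130 to 776 units over a local background of 71 to 76, so the size of the range depended on background handling: it was 2.62 (log2) here and 3.72 with the scanner's processed signals. The difference between groups was 0.31 (limma SE 0.48, interval -0.75 to 1.38), and without AhR 3 it was -0.15.

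The spread of Bcl6, A1bg and Socs2 lay in the liver channel. For this, each channel was quantile-normalized between arrays. On the log2 signal scale, the SD within groups was 1.10 in Cy5 and 0.07 in Cy3 for Bcl6, 0.94 and 0.06 for A1bg, and 0.75 and 0.05 for Socs2. Over all genes the median was 0.16 in Cy5 and 0.07 in Cy3. Obp3 was at 0.06 in Cy5 and 0.09 in Cy3 and Igf1 at 0.07 and 0.08, so that both had a smaller SD in the liver channel than in the common reference. This was not particular to them. Of other bright hepatocyte markers, chosen after their values were seen, Hp had 0.07 and 0.17 and Ttr 0.08 and 0.14, while Fgb had 0.07 and 0.04. Cyp2c11 had the largest Cy3 spread of the members, 0.17, beside 0.25 in Cy5.

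**Figure D2:**
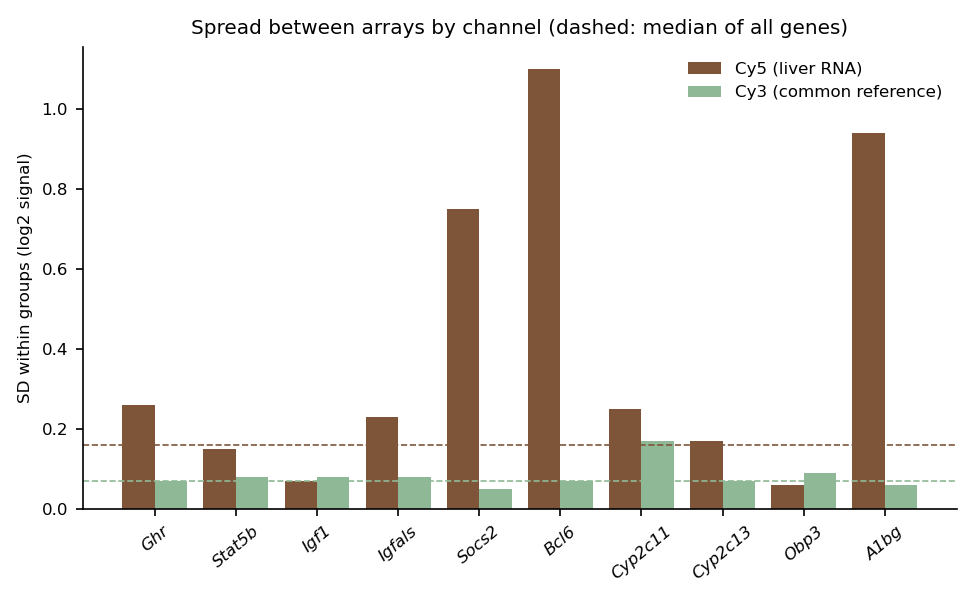
SD within groups of the log2 signal in the liver channel (Cy5) and in the common reference channel (Cy3) for each member, over 8 arrays. Each channel was quantile-normalized between arrays, and dashed lines are the medians of all genes, 0.16 and 0.07. Bcl6, A1bg and Socs2 are at 0.75 or above in Cy5 and at 0.07 or below in Cy3.

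The comparison of the groups asks whether exposure during development left a difference in these genes in adulthood. None of the 10 members was called (limma, Benjamini-Hochberg adjusted p = 1.00 for each), and 0 of 17859 probes were called over the whole table, which is 0%. At an unadjusted limma p under 0.05 the members counted 0 of 10, beside 1.61% of all probes. Of the members, 7 were higher and 3 lower in AhR, with a median difference of 0.06, against 0.00 over all genes. The median size of the difference was 0.15 for the members and 0.07 for all genes. Exact permutation p-values over the 70 splits of the arrays ran from 0.200 for Igf1 and Igfals to 0.886 for Cyp2c13, where 0.0286 is the smallest possible. In every member the groups overlapped. With no difference, groups separate fully in a share of only 0.0286 of splits, so overlap in all 10 says little about the members. The intervals differ in width: that of Obp3 ends at -0.21 and 0.28, while that of Bcl6 reaches from -1.59 to 1.10.

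**Figure D3:**
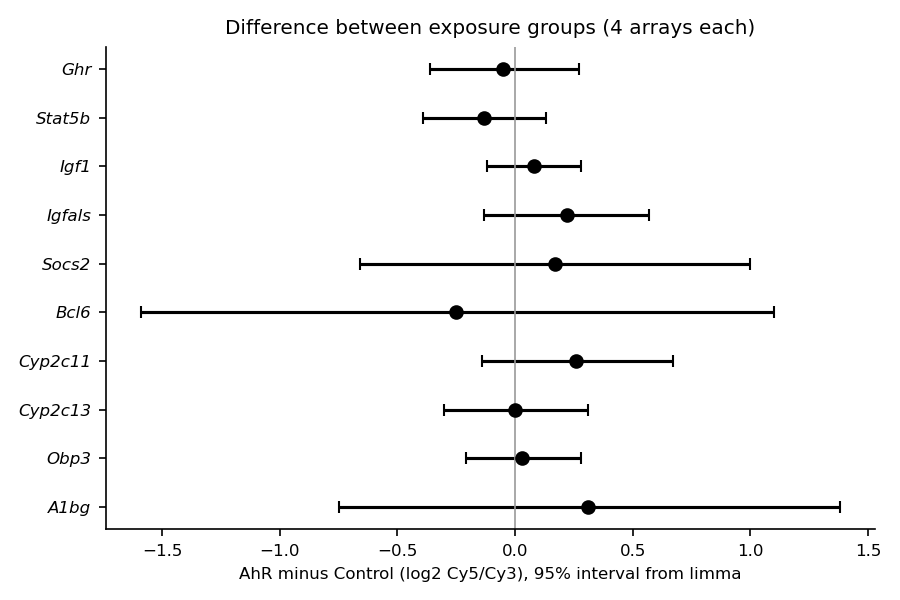
AhR minus Control (log2 Cy5/Cy3) for each member with the 95% interval of the limma fit, 4 arrays in each group. All 10 intervals cross 0, and those of Bcl6, A1bg and Socs2 are the widest.

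The other genes of the pathway showed as little. In a list of 13 measured genes of growth hormone receptor signalling, 3 of them members, 8 were higher and 5 lower in AhR and none was called. The smallest p was that of Stat5a, the close relative of Stat5b, which had -0.26, -0.40, -0.21 and 0.11 in AhR, against 0.15, 0.22, 0.06 and -0.05 in Control. The difference was -0.29 (limma SE 0.12, unadjusted p = 0.0361, adjusted p = 1.00), with 3 of 4 AhR arrays below every Control array. Jak2, named for its place in the pathway and not for its p, differed by 0.06 (limma SE 0.11) and Irs1, an adaptor of the insulin and IGF1 receptors, by -0.14 (limma SE 0.14). In the IGF system, 5 of 10 measured genes were higher and 5 lower and none was called; the difference was 0.21 (limma SE 0.12) for Igfbp4 and 0.23 (limma SE 0.23) for Igfbp6, which encode binding proteins. Of 17 measured male-biased genes, 8 were higher and 9 lower and none was called. Cyp4a2, a fatty acid hydroxylase, had 1.21, 0.46, 0.37 and 1.51 in AhR, against 0.77, -0.05, -0.17 and 0.23 in Control, a difference of 0.69 (limma SE 0.27, unadjusted p = 0.0287, adjusted p = 1.00). Hao2 differed by 0.29 (limma SE 0.15) and Cyp3a2 by 0.50 (limma SE 0.27). Of 10 measured female-biased genes, A1bg among them, 7 were higher and 3 lower, and none was called.

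The spread of Bcl6 was then set against the hormone's targets, array by array. The arrays of highest Bcl6, AhR 2 and Control 1, were the arrays of lowest Socs2, at -0.21 and -0.30. They were also lowest for Onecut1, a liver transcription factor that growth hormone regulates in rat, which had 1.04, -1.24, 1.34 and 0.15 in AhR, against -1.53, 0.17, 1.11 and 0.58 in Control. Both orders held in 6 of 6 ways of processing the signals, which all start from the same 8 arrays. The 3 arrays of highest Bcl6, which add Control 2, were the 3 of lowest Igfals in 5 of 6. With median centring AhR 4 took the place of AhR 2. Onecut1 was named for its small p against Bcl6, and the share of all genes with any of these orders is not given here.

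In a fit of every probe on Bcl6 with the group as a term, the slope was -0.52 for Socs2 (limma SE 0.11, unadjusted p = 0.000812, adjusted p = 0.598) and -0.21 for Igfals (limma SE 0.05, unadjusted p = 0.00217, adjusted p = 0.598), per unit of log2 Bcl6. These were 2 of 9 members below an unadjusted p of 0.05, beside 7.44% of all 17858 probes. After adjustment 0% of the probes passed, and the lowest adjusted p was 0.193. The slopes of the other 7 members were -0.30 for A1bg (limma SE 0.24) and between -0.04 and 0.11 for the rest.

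Because Bcl6 fell into separate levels, no correlation over all 8 arrays is given. Over the other 6 arrays, between -0.96 and -0.20 of Bcl6, Igfals was lower where Bcl6 was higher, with Pearson's r = -0.98 (exact permutation p = 0.00417, adjusted p = 0.660 over 10003 genes) and Spearman's rho = -0.94 (exact p = 0.0167, adjusted p = 0.629). Without Control 2 and AhR 1, the arrays farthest from the median, r was -0.90 over 4 arrays (exact p = 0.125), and with median centring it was -0.39 over the 6. For Socs2, r over the 6 arrays was -0.20 (exact p = 0.783, adjusted p = 0.941, rho = 0.26), so the relation of Socs2 to Bcl6 rested on AhR 2 and Control 1. Onecut1 had r = -0.61 over the 6 arrays (exact p = 0.178, adjusted p = 0.711, rho = -0.60). Cyp2c13 had r = -0.68 (exact p = 0.132, adjusted p = 0.679) and Cyp2c11 r = -0.52 (exact p = 0.276, adjusted p = 0.766), and for Cyp2c11 the sign turned when the farthest arrays were left out (r = 0.76 over 4). Of these 6 arrays, AhR 4 and Control 3 lay in row 1 of the slide and the others in row 2, too few for a value within a row. Among the 6, Cyp2c13 was highest on AhR 4 and Control 3. With the row as a block, r of Bcl6 with Igfals was -0.98. That value rested on the row 2 arrays, as AhR 4 and Control 3 hardly differed in Bcl6 (-0.76 and -0.78). Control 2, the array of highest Bcl6 among the 6, also stood apart in red cell markers (4 of 5 passed), whose mean log2 ratio was -1.10, -0.55, -1.68 and -1.16 in AhR, against -1.03, 0.34, -0.92 and -0.95 in Control. Their summed Cy5 signal was 60900 to 134000 units in AhR and 89800 to 185000 units in Control. Over the 6 arrays Ahsp, a haemoglobin chaperone, had r = 0.95 with Bcl6 (exact p = 0.0181, adjusted p = 0.660, rho = 0.71) and Hbb, a globin, 0.87 (exact p = 0.0625, adjusted p = 0.660, rho = 0.49). Without Control 2 and AhR 1 these were 0.63 and 0.51 over 4 arrays. The endothelial marker Tie1 had r = -0.85 (exact p = 0.0194, adjusted p = 0.660, rho = -0.83), and -0.37 over the 4. The part of red cells and endothelial cells in the relation of Bcl6 to Igfals was not tested.

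**Figure D4:**
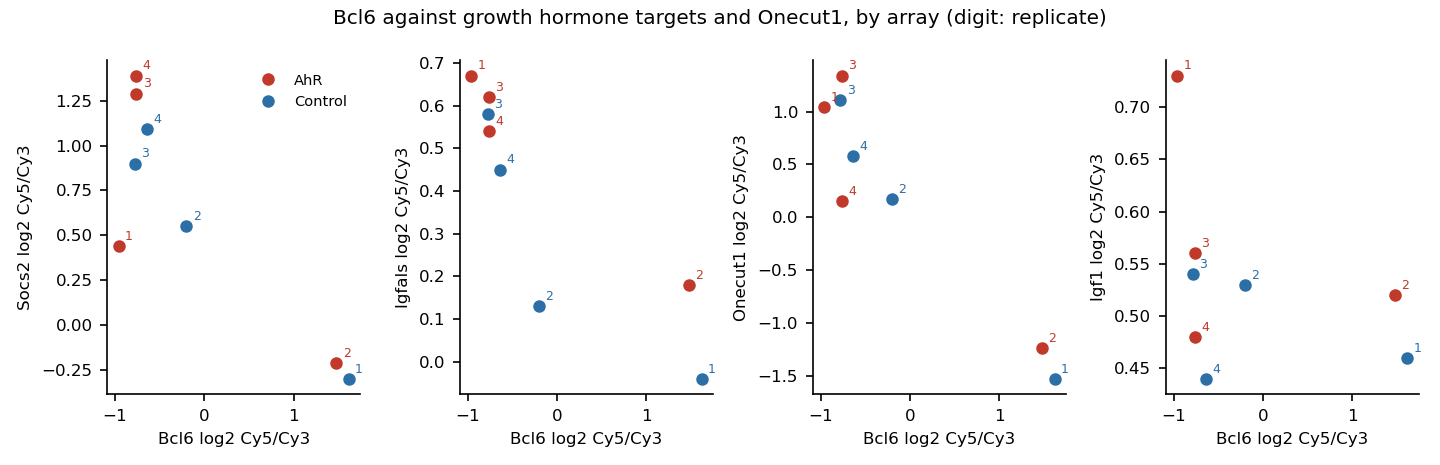
Bcl6 (horizontal) against Socs2, Igfals, Onecut1 and Igf1 (vertical), log2 Cy5/Cy3, 1 point per array with its replicate number. AhR 2 and Control 1 sit at the right of each panel, lowest for Socs2 and Onecut1, and Igf1 spans only 0.29 in all.

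Markers of Kupffer cells, the macrophages of the liver, were low where Bcl6 was highest, mainly on Control 1. At an unadjusted limma p under 0.05 in the fit on Bcl6 they counted 6 of 9 (Cd68, Cd163, Clec4f, Adgre1, C1qa and C1qb, of which Cd68 and Clec4f are named only to complete the count), beside 7.44% of all probes, and none had an adjusted p under 0.05. Without Control 1 the count was 1 of 9. The mean log2 ratio of the list was -0.02, -0.23, 0.37 and -0.28 in AhR, against -0.86, 0.14, 0.10 and -0.12 in Control. Control 1 was lowest, and AhR 2, the other array of high Bcl6, lay above AhR 4. The part of these cells in the relation of Bcl6 to Socs2 and Igfals was not tested. Hepatocyte markers averaged between 0.00 and 0.30 in AhR and between 0.14 and 0.28 in Control, with 0.30 on AhR 2 and 0.15 on Control 1.

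The genes whose pattern over the 8 arrays was most like that of Bcl6, by Pearson's r among 9213 genes, were Klk11, Sowahc and Chrnb1, and the most opposed were Arhgef1, Brd2 and Mef2d. Over the 6 arrays of lower Bcl6, r was 0.67, 0.66 and 0.86 for the first 3 and -0.91, -0.46 and -0.72 for the last 3. The ranking included AhR 2 and Control 1, where Bcl6 stood apart, and is a description. Brd2, a chromatin reader, had 0.07, -0.40, 0.05 and 0.14 in AhR, against -0.43, 0.04, 0.16 and 0.09 in Control.

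A1bg did not follow the same arrays. In the fit on A1bg with the group as a term, 0 of 9 other members had an unadjusted limma p under 0.05, beside 2.27% of all probes, and 0% of the probes passed after adjustment (lowest adjusted p 0.184). Over 8 arrays A1bg ran against Obp3 with r = -0.62 (exact permutation p = 0.102, adjusted p = 0.996) and rho = -0.74 (exact p = 0.0458, adjusted p = 0.998). Without AhR 3 and AhR 2, the arrays farthest from the median, r was -0.70 over 6 (exact p = 0.122), and with the slide row as a block it was -0.46. With Cyp2c13 r was -0.43 (exact p = 0.293, adjusted p = 0.996, rho = -0.45), but 0.70 with the slide row as a block. Cyp2c13 itself separated by slide row, so its r depends on whether the row is taken out. For Socs2, Igfals, Igf1 and Ghr r lay between 0.04 and 0.37, for Cyp2c11 it was -0.01 and for Stat5b -0.28. For Bcl6 and A1bg together, 17 relations were computed, 1 had an exact p of Pearson's r under 0.05 and 0 passed after adjustment. Over all 10003 genes that p was under 0.05 for 6.56% with Bcl6 and 2.96% with A1bg, so a count of 1 in 17 is near the background.

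Other sex-biased genes were set against A1bg in the same fit. Of 9 other female-biased genes, 5 had an unadjusted limma p under 0.05 in the fit on A1bg, beside 2.27% of all probes, and none passed after adjustment. Cyp2c7, Sult2a1, Srd5a1 and Prlr ran with A1bg, and Adh1c, an alcohol dehydrogenase, ran against it. Adh1c stands for the listed name Adh1, which matched it only as a synonym, and without it the count is 4 of 8. Cyp2c7 and Cyp2a1 are named only to complete the list. Without AhR 3 the count was 2 of 9. Prlr, which encodes the prolactin receptor, had -0.42, -1.76, -0.31 and -1.68 in AhR, against -0.28, -1.31, -1.47 and -0.23 in Control. Its 4 high arrays were AhR 1, AhR 3, Control 1 and Control 4, and they were the 4 arrays of highest A1bg in 6 of 6 ways of processing. Srd5a1, a steroid 5-alpha-reductase chosen after its values were seen, had 0.21, -0.34, 0.25 and -0.68 in AhR, against 0.43, -0.40, -0.65 and 0.72 in Control. Its 4 highest arrays were the same in 6 of 6, and the share of all genes with this order is not given here. Of these 4 arrays, AhR 1, AhR 3 and Control 4 lay in row 2 of the slide and Control 1 in row 1. Sult2a1, a steroid sulfotransferase, had r = 0.74 with A1bg (exact permutation p = 0.0326, adjusted p = 0.996, rho = 0.64), 0.45 without the farthest arrays and 0.34 with the slide row as a block.

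Of 17 male-biased genes, 3 had an unadjusted limma p under 0.05 against A1bg, beside 2.27% of all probes: Cyp3a18, Mup4 and Hsd3b5. None passed after adjustment. Without AhR 3 the count was 1, and without Control 1 it was 5. Hsd3b5, a ketosteroid reductase, had 0.24, 0.79, 0.03 and 0.92 in AhR, against 0.81, 0.45, 0.86 and 0.57 in Control. It was lowest on AhR 3 and AhR 1, where A1bg was highest. Its r with A1bg was -0.88 (exact permutation p = 0.00377, adjusted p = 0.996, rho = -0.74), -0.79 without the farthest arrays and -0.70 with the slide row as a block. Mup4, a major urinary protein, had 0.40, 0.69, 0.06 and 1.07 in AhR, against 0.26, 0.57, 0.83 and 0.65 in Control, with r = -0.78 (exact p = 0.0226, adjusted p = 0.996, rho = -0.79). The male members Cyp2c11 and Cyp2c13 did not reach an unadjusted p under 0.05 in the same fit. Among endothelial markers, 1 of 6, Oit3, had an unadjusted limma p under 0.05 against A1bg, and among Kupffer cell markers 1 of 9, Adgre1. The share over all probes was 2.27%. The part of these cells in the A1bg values was not tested.

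**Figure D5:**
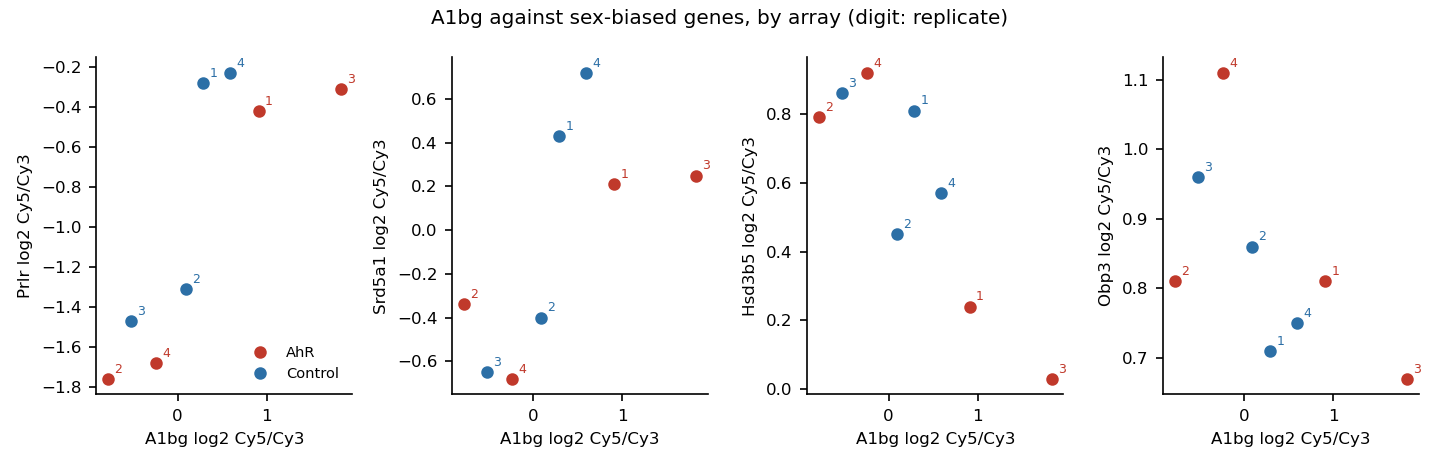
A1bg (horizontal) against Prlr, Srd5a1, Hsd3b5 and Obp3 (vertical), log2 Cy5/Cy3, 1 point per array with its replicate number. AhR 1, AhR 3, Control 1 and Control 4 are highest for A1bg, Prlr and Srd5a1, and AhR 3 is lowest for Hsd3b5 and Obp3.

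Among 9213 genes, those most like A1bg over 8 arrays were Pianp (r = 0.93), Sox18 (0.92) and Creb3l1 (0.92), and the most opposed were Slc22a18 (-0.96), Pkp3 (-0.90) and Mcpt10 (-0.90). These were ranked by r and are a description. Sox18, a transcription factor of endothelial cells, had 0.14, -0.28, 0.46 and -0.12 in AhR, against -0.16, -0.15, -0.29 and -0.17 in Control, so its match to A1bg lay mostly in AhR 1 and AhR 3.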

How the data were processed

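Intensity values are median pixel signals of each spot and its background, deposited by the authors from Agilent Feature Extraction (version 10.7.3.1, rn4 grid), per the file headers. The deposited value table is in log2 units, with its scale and dye correction not stated, and was an alternative. With limma 3.58.1 (R 4.3.3), both channels were corrected by normexp (offset 50) and given a loess fit within each array, in which control and outlier spots had weight 0. Spots of a probe were averaged. Probes with Cy5 well above background on at least 4 of 8 arrays were kept, 17859 of 30367. RefSeq accessions, without versions, named 18004 probes through the GRCr8 gene table. Groups, and slopes on Bcl6 or A1bg with group as a term, were tested with limma over all kept probes, with Benjamini-Hochberg adjustment. Correlations were tested over all 40320 pairings of 8 arrays or 720 of 6, two-sided. Promoters came from RefSeq.

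Named genes were the members, in each list the 3 of smallest p between groups and the 2 of smallest p against Bcl6 and A1bg, and the genes most alike; a few others are marked in the text. Members and lists were chosen with earlier results of these data known. The fits were tested on simulated data with 200 of 17859 probes changed and noise drawn independently for each probe and array. Of group changes they recovered 48.7% at 1.5-fold and 86.9% at 2-fold. Of slopes on Bcl6 they recovered 30.5% at 0.25 and 83.6% at 0.5, so small changes were often missed. These rates are averages over probes drawn at random, each with noise of its own SD, and are not rates for the members. The limma SE of the group difference was 0.61 for Bcl6, 0.48 for A1bg and 0.37 for Socs2. Arrays with the same replicate number, which lay in the same slide column, did not deviate together (r from -0.37 to 0.05). Alternatives covered background, normalization, channel, filter, blocks, probes, the deposited table and leaving out single arrays. The number of arrays limits the precision.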

Additional observations from a re-analysis of the deposited data

Results flagged for a closer look

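Bcl6 on AhR 2 was 1.48 (log2 Cy5/Cy3), far from the other 3 AhR arrays, whose nearest value was -0.76; the gap is 91.8% of the group's range. It was the 1 array singled out among 20 groups of 4 (10 members in 2 groups), and chance gives about 1 in 20. Control 1, at 1.62, was as high in the other group.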

How the results depend on the processing

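No member was called between the groups under any alternative run, and 0 probes were called in each. With array 1 to 4 of each group as a replicate block, 0 probes passed in the 3 fits. Between groups, 251 probes had an unadjusted limma p under 0.05. The members below that p against Bcl6 numbered 1 rather than 2. Arrays with the same number lay in the same column of the slide, so this block is also one of slide column. No value with this block could be had for correlations with Bcl6. Against Bcl6, the number of probes called ran from 0 to 1 with single arrays left out (1 without AhR 4, adjusted p 0.00433), and was 0 without both AhR 2 and Control 1. Counts of genes below an unadjusted p of 0.05 were added after seeing the data. Female-biased genes against A1bg numbered 2 with median centring, 3 with the slide row as a block and 2 to 5 with single arrays left out. Male-biased genes numbered 1 with the slide row and 1 to 5 with single arrays left out. Kupffer cell markers against Bcl6 numbered 1 with median centring, 3 with the slide row and 1 to 8 with single arrays left out. The cause was not tested.

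Differences within the noise changed sign. Cyp2c13 was at -0.01 with processed signals and with the value table, and Ghr at 0.02 with median centring. With single arrays left out, the difference ran from -0.10 to 0.10 for Cyp2c13, -0.12 to 0.48 for Socs2, -0.15 to 0.72 for A1bg, -0.82 to 0.29 for Bcl6, -0.05 to 0.09 for Obp3, -0.13 to 0.07 for Ghr, -0.01 to 0.75 for Cyp2c12, -0.04 to 0.26 for Serpina1, -0.06 to 0.33 for C1qa and -0.02 to 0.27 for Spp1.

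Correlations that changed sign had an adjusted p above 0.05 throughout. With Bcl6 over 6 arrays, processed signals gave -0.07 for Ghr. Median centring gave 0.04 for Stat5b, 0.20 for Igf1, 0.20 for Cyp2c11 and 0.06 for Obp3. Cy5 alone gave 0.01 for Socs2, 0.01 for Cyp2c11 and 0.05 for A1bg. The slide row gave -0.14 for Ghr and 0.42 for Obp3, and deviations from group means gave -0.39 for Ghr, 0.00 for Obp3 and 0.10 for A1bg. With A1bg over 8 arrays, Cyp2c11 was at 0.06 with processed signals, 0.09 with Cy5 alone, 0.01 with the value table and 0.13 with the replicate block. The slide row gave -0.48 for Ghr, 0.03 for Stat5b and 0.70 for Cyp2c13, and the other Ghr probes gave -0.28 and -0.38, or -0.40 as a mean of probes. With single arrays left out, r of A1bg with Cyp2c11 ran from -0.23 to 0.53 and with Ghr from -0.20 to 0.30.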

Other observations

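Clock and fasting genes also varied between the arrays. At an unadjusted limma p under 0.05 in the fit on Bcl6 they counted 1 of 10 clock genes (Bmal1) and 2 of 11 insulin and fasting genes (Fgf21 and Trib3), beside 7.44% of all probes, and none had an adjusted p under 0.05. Fgf21, a hepatic hormone of fasting, had -0.31, -0.92, 0.22 and 0.04 in AhR, against -1.02, -0.50, -0.05 and -0.78 in Control, lowest on Control 1 and AhR 2, the arrays of highest Bcl6. Dbp, a clock output factor of the liver, had 1.41, 1.22, 0.08 and -2.21 in AhR, against 0.32, -1.36, -1.52 and -0.42 in Control (log2 Cy5/Cy3), and Bmal1, a core clock activator, had -0.66, -1.33, -0.29 and 0.91 in AhR, against -0.57, 0.43, 0.23 and 0.63 in Control. AhR 2 was high for Dbp and lowest for Bmal1, and AhR 4 the reverse. The median SD within groups of the 10 measured clock genes was 0.40, against 0.17 over all genes, and 0 of 10 were called between the groups by limma. Igfbp1, a binding protein of IGF1 that insulin lowers, had -0.96, -0.97, -2.01 and -0.21 in AhR, against 0.68, -1.82, -1.55 and -0.37 in Control, so that Control 1, high for Bcl6, was its highest array and AhR 2 was not among the highest 3. Dbp and Bmal1 followed the rule for named genes, and Igfbp1 was chosen after its values were seen.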
